A study of Homo sapiens with 16 samples.

Results

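TPT1, RACK1, NAP1L1, NACA, BTF3, NPM1 and VIM are 7 mRNAs commonly grouped as TOP mRNAs that do not encode classical ribosomal proteins. They were chosen by name, with no measured value in the rule, and all 7 were found among the 60107 genes listed for each library. A TOP mRNA begins at its cap with a cytosine followed by an unbroken run of pyrimidines, the 5′ terminal oligopyrimidine sequence. Ribosomal protein mRNAs are the best known members of the class, and the sequence is known for letting cells adjust their translation together through mTOR and the cap-proximal binding protein LARP1.

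The proteins encoded by the 7 mRNAs have different roles. TPT1 encodes TCTP, an abundant tumour protein under translational control, and RACK1 encodes a scaffold that sits on the small ribosomal subunit. NACA and BTF3 encode the alpha and beta subunits of the nascent polypeptide-associated complex, which binds new chains as they leave the ribosome. NAP1L1 and NPM1 encode histone chaperones, the first cytoplasmic and nuclear and the second mainly nucleolar. VIM encodes vimentin, the intermediate filament protein of mesenchymal cells.

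All libraries were made from the cytoplasmic RNA of U2OS-TR, human osteosarcoma cells that stably express the tetracycline repressor. The Control (n = 5) and Induced (n = 5) libraries were from 1 clonal line that also carries a doxycycline-inducible transgene for ΔN-RNMT, an inactive cytoplasmic fragment of the cap methyltransferase RNMT. The No Dox (n = 3) and With Dox (n = 3) libraries were from parental U2OS-TR cells without that transgene, which served as a control for doxycycline itself. Cells grew for 48 h, and the Induced and With Dox cells then received 1 μg/ml doxycycline for 24 h, although the labels' protocol names doxycycline for all 16 libraries. Parental libraries were sequenced at another facility on another instrument, so line and facility cannot be told apart. In bulk RNA a smaller number of cells with a transcript and less of it per cell cannot be told apart either.

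The measurement was a count of sequence tags next to the poly(A) tail of each gene's mRNAs. Control libraries held 18991617 to 23251834 gene counts, Induced libraries 12527183 to 20781875 and parental libraries 1473286 to 3214808. Levels are given as counts per mega-count (CPM) after TMM scaling, separately for each line. RNMT had 74.3 ± 22.4 CPM (SD, n = 5) in Control and 346 ± 78.0 (SD, n = 5) in Induced libraries, without overlap, and tags of the transgene and of the endogenous gene were not separated. The mesenchymal genes COL1A1, SPARC and CDH2 were counted in every group, COL1A2 held 0 counts in Control and 2 in Induced libraries, TWIST1 held 0 in both, and 5 blood genes together stayed at or below 1.23 CPM in every library. Epithelial genes were counted as well, with 785 and 1055 counts for EPCAM in Control and Induced libraries, 850 and 780 for CLDN4 and 56 and 137 for CDH1. KRT19 held 12 and 5 counts and ESRP1 7 and 3. These 5 together held 12.45 to 22.21 CPM in Control libraries, where the 7 mesenchymal genes examined held 428 to 484 CPM. MALAT1 and NEAT1, which mark nuclear RNA, together held 735 to 929.6 CPM in Control and 491 to 895 CPM in Induced libraries.

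Tags that matched several places in the genome were not counted, and in the transgene line there were 0.561 to 1.33 of them per gene count. This bears on the 7 genes unequally. Annotated pseudogenes named by the gene's symbol, P and a number are 49 for NPM1, 16 for BTF3, 15 for TPT1, 6 for NACA, 3 each for RACK1 and NAP1L1 and 0 for VIM. Together those of a gene took up at most 1.34% of the count of their parent gene in any library, which was for NPM1. NACA4P, a copy of NACA with another form of name, is not among them. It held 6.57 CPM in Control and 10.9 CPM in Induced libraries on average, where NACA held 219 and 199 CPM. Tags lost from the parent genes cannot be counted from these data.

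The annotated 5′ ends of the 7 mRNAs were examined first, because the TOP sequence is what groups them. Each line gives 10 bases before and 20 bases from a RefSeq transcription start of GRCh38.p14, read 5′ to 3′ on the strand of the gene, with the TOP sequence in capitals. The sequences are shown because they are the property that the genes are said to share.
TPT1: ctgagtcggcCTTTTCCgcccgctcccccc
RACK1: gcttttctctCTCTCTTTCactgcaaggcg
NAP1L1: gctcttgggtCTTTTTTagcgccatctgct
NACA: ctcgctcggtCTTTCTgccgccatcttggt
BTF3: cttccggcctCCCTTTagctgccatcttgc
NPM1: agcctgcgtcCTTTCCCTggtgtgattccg
VIM: atcgtgatctgggaggcccacgtatggcgc

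The TPT1 sequence lies at chr13:45341164-45341193 on the reverse strand, RACK1 at chr5:181243887-181243916 (reverse), NAP1L1 at chr12:76084666-76084695 (reverse) and NACA at chr12:56725280-56725309 (reverse). BTF3 lies at chr5:73498432-73498461 on the forward strand, NPM1 at chr5:171387839-171387868 (forward) and VIM at chr10:17228231-17228260 (forward). Each sequence spans the boundary between the promoter and the first exon, which begins with the 11th base printed. A run was counted as a TOP sequence when a C at the annotated start was followed by at least 4 pyrimidines on the sense strand. It was present in 6 of the 7 genes, with a run of 9 bases in RACK1, 8 in NPM1, 7 in TPT1 and NAP1L1 and 6 in NACA and BTF3. VIM had none, neither at its RefSeq start nor within 10 bases of it.

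Of all 35116 RefSeq windows, 4.07% held such a run at the start and 33.5% held one that began within 10 bases of it. RefSeq lists a second start for NPM1, at base 171387116 of chromosome 5, where the run begins before the start and not at it. In GENCODE release 44 the canonical transcript has the TOP sequence for the same 6 genes, but other transcripts often start elsewhere. It begins 1 of 9 protein-coding transcripts of TPT1, 5 of 18 of RACK1, 6 of 18 of NAP1L1, 3 of 17 of NACA, 1 of 6 of BTF3, 1 of 13 of NPM1 and 0 of 4 of VIM. The label of a TOP mRNA therefore holds at the annotated start for 6 of the 7, and for VIM the letters are not in the windows searched. The GENCODE starts, which for VIM lie from base 17228241 to 17229278, were searched at their first base only. Tags at the 3′ end do not show which start a counted mRNA had.

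Induced cells were compared with Control cells to learn how these mRNAs respond when ΔN-RNMT is expressed. VIM, NAP1L1 and BTF3 were higher in Induced cells, by 2.72-fold, 1.49-fold and 1.37-fold, and none of the 7 was called lower. RACK1, NACA, NPM1 and TPT1 did not pass the test, with folds of 1.45, 0.912, 0.979 and 0.858. All 7 genes had groups that overlapped, and for RACK1, NAP1L1, BTF3 and VIM the overlap ran through Control replicate 5 or Induced replicate 2. The 3 calls of 7 stand beside 39.8% called among all 13038 genes tested, 20.0% higher and 19.8% lower, and the 0 of 7 without overlap stands beside 7.30% of all genes.

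**Figure D1:**
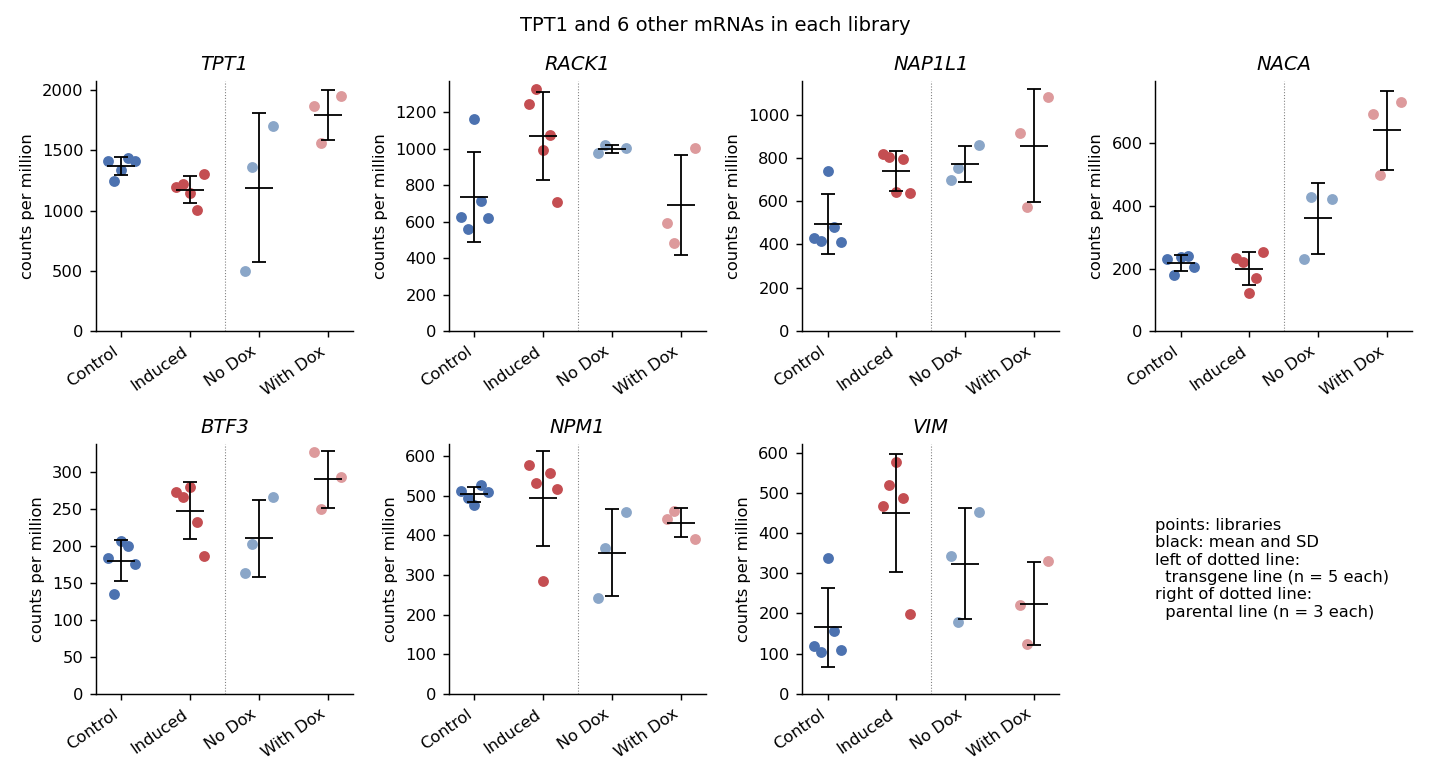
Level of each of the 7 mRNAs in every library, in TMM-scaled CPM on axes that start at 0. Points are libraries, black bars are the mean and SD (n = 5 for Control and Induced, n = 3 for No Dox and With Dox), and the dotted line separates the transgene line from the parental line, which were scaled separately. VIM has the highest ratio of Induced to Control means among the 7, 449 against 165 CPM.

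TPT1 lies on chromosome 13 from 45333471 to 45341284, on the reverse strand of GRCh38, and its canonical transcript has 6 exons. Its level was 1410.1, 1409.7, 1249, 1432 and 1338 CPM in Control replicates 1 to 5 and 1194, 1304, 1224, 1008 and 1142 CPM in Induced replicates 1 to 5. Control libraries were tightly grouped at 1368 ± 75.4 (SD, n = 5), Induced libraries averaged 1174 ± 110.1 (SD, n = 5), and Induced replicate 2 was the only one above the lowest Control library. The log2 fold change was −0.22 (SE 0.13), and the adjusted p of 0.187 (edgeR quasi-likelihood test, adjusted by Benjamini and Hochberg over all genes) did not pass the threshold of 0.05. With offsets for the GC content of each gene, under which 26.6% of all genes were called, the log2 fold change was −0.49 with an adjusted p of 0.0329. With total counts alone as the scale, which shifted the median of all genes from 0.04 to 0.28 and called 41.6% of them, it was 0.01, and TPT1 lay 0.26 below the median of all genes on either scale.

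RACK1 lies on chromosome 5 from 181236897 to 181248096 (reverse strand), with 8 exons in its canonical transcript. Its level was 625, 621, 557, 713 and 1164 CPM in Control replicates 1 to 5 and 1243, 709, 1325, 1075 and 995 CPM in Induced replicates 1 to 5. Control replicate 5 lay within the range of the Induced libraries, and Induced replicate 2 lay just below Control replicate 4. The log2 fold change was 0.54 (SE 0.24, adjusted p = 0.0832, edgeR), which did not pass. Without Control replicate 5 it was 0.75 with an adjusted p of 0.00562, and without Induced replicate 2 it was 0.66 with an adjusted p of 0.0350. RACK1 thus stood on either side of the threshold depending on 1 library.

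NAP1L1 lies on chromosome 12 from 76036585 to 76084735 (reverse strand), with 15 exons in its canonical transcript. Its level was 430.3, 410.3, 416, 482 and 738 CPM in Control replicates 1 to 5 and 817, 639.7, 806, 793 and 640.3 CPM in Induced replicates 1 to 5. The first 4 Control libraries lay below all Induced libraries, and Control replicate 5 lay between them. NAP1L1 rose by 0.58 on the log2 scale (SE 0.19, adjusted p = 0.0347, edgeR). That call was lost in 7 of the 10 fits that left out 1 library, in which the log2 fold change ranged from 0.51 to 0.75 over all 10, and with GC offsets the log2 fold change was 0.10 (adjusted p = 0.561). Of its relatives among the nucleosome assembly proteins, NAP1L2 rose by 1.95 (SE 0.68, adjusted p = 0.0403) from 4.12 ± 5.51 to 16.2 ± 7.35 CPM (SD, n = 5 each), whereas NAP1L3, NAP1L4, NAP1L5 and SET did not pass the test.

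NACA lies on chromosome 12 from 56712305 to 56731628 (reverse strand), with 9 exons in its canonical transcript. Its level was 232, 206, 178, 239.7 and 237 CPM in Control replicates 1 to 5 and 234, 252, 220.1, 169 and 122 CPM in Induced replicates 1 to 5. The Control range lay inside the Induced range, which was widened downwards by Induced replicates 4 and 5. The log2 fold change was −0.13 (SE 0.20, adjusted p = 0.600, edgeR). PRIM1, which overlaps NACA on the same strand, held 1.68% to 5.90% of the NACA count in Control and 6.18% to 15.8% in Induced libraries. The overlap of 1191 bases holds 0 bases of the last exon of NACA's canonical transcript, and how tags in the overlap were assigned is not known here.

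BTF3 lies on chromosome 5 from 73498408 to 73505667 (forward strand), with 6 exons in its canonical transcript. Its level was 183, 175, 135, 199 and 207 CPM in Control replicates 1 to 5 and 272, 187, 266, 232 and 279 CPM in Induced replicates 1 to 5. Induced replicate 2 was within the Control range, and the other 4 Induced libraries were above it. BTF3 rose by 0.46 (SE 0.17, adjusted p = 0.0471, edgeR), close to the threshold. The call was lost in 8 of the 10 fits without 1 library, where the log2 fold change ranged from 0.36 to 0.54, and the range of adjusted p was 0.0184 to 0.110. Its paralogue BTF3L4 had a log2 fold change of −0.04 (SE 0.16, adjusted p = 0.855), and NACA4P, a copy of NACA, rose by 0.73 (SE 0.22, adjusted p = 0.0277) at 6.57 ± 1.34 CPM in Control and 10.9 ± 3.21 CPM in Induced libraries (SD, n = 5 each).

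NPM1 lies on chromosome 5 from 171387116 to 171411810 (forward strand), with 11 exons in its canonical transcript. Its level was 511, 509, 495, 528 and 477 CPM in Control replicates 1 to 5 and 577, 518, 532, 557 and 284 CPM in Induced replicates 1 to 5. Of the 7 genes NPM1 had the smallest spread among Control libraries (504 ± 19.3 CPM, SD, n = 5), and Induced replicate 5 stood far below the other libraries. The log2 fold change was −0.03 (SE 0.19, adjusted p = 0.900, edgeR), and it was 0.12 (adjusted p = 0.429) without Induced replicate 5. With GC offsets it was −0.40 (adjusted p = 0.103). Among other nucleolar genes, FBL, which encodes the RNA methyltransferase fibrillarin, fell by 1.09 on the log2 scale (SE 0.25, adjusted p = 0.0175), and NPM3, NOP56 and NCL had values of 0.61, −0.30 and −0.19 that did not pass.

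VIM lies on chromosome 10 from 17228241 to 17237593 (forward strand), with 10 exons in its canonical transcript. Its level was 118, 109, 104, 156 and 337 CPM in Control replicates 1 to 5 and 467, 198, 519, 487 and 576 CPM in Induced replicates 1 to 5. The groups overlapped through Control replicate 5, above Induced replicate 2, and the other 4 Control libraries lay below every Induced library. VIM rose by 1.44 on the log2 scale (SE 0.37, adjusted p = 0.0182, edgeR), more than 93.6% of all genes tested. It was called in all 10 fits that left out 1 library, with log2 fold changes of 1.31 to 1.87 and adjusted p of 0.000443 to 0.0495. With 1 surrogate variable as a covariate, under which 1 of the 13038 genes (0.00767%) was called, it was 0.92 (adjusted p = 0.0727).

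VIM-AS1, an antisense gene that overlaps VIM, rose by 2.45 (SE 0.59, adjusted p = 0.0175) at 0.409 ± 0.318 CPM in Control and 2.31 ± 1.18 CPM in Induced libraries (SD, n = 5 each). The use of strand in the counting is not given in the sources used here, so tags where this pair overlaps may not be told apart. The overlap of 1778 bases holds 0 bases of the last exon of VIM's canonical transcript. How many tags in the VIM count came from the antisense strand was not tested. VIM-AS1 was given at most 57 counts in any Induced library, and VIM at least 4209. Of the 7 genes tested among other filament proteins and lamins, 2 rose and 3 fell. For this list and the mesenchymal one below, the share of all 13038 genes tested was 20.0% higher and 19.8% lower. The lamin genes LMNB1 and LMNB2 rose by 1.09 (SE 0.32, adjusted p = 0.0243) and 1.22 (SE 0.39, adjusted p = 0.0315). KRT18, a keratin of simple epithelia, fell by 0.78 (SE 0.19, adjusted p = 0.0175) without overlap, its partner KRT8 fell by 0.40 (SE 0.14, adjusted p = 0.0424), and PLEC, which encodes a linker of filaments, fell by 1.05 (SE 0.29, adjusted p = 0.0211). In a list of 8 mesenchymal genes 2 of the 6 tested rose, the transcription factors SNAI2 by 2.45 (SE 0.66, adjusted p = 0.0191) and SNAI1 by 2.83 (SE 1.02, adjusted p = 0.0449), both at low levels of 3.14 ± 1.43 and 22.8 ± 13.04 CPM in Induced libraries (SD, n = 5). FN1, which encodes fibronectin, had a value of −0.45 (SE 0.18, adjusted p = 0.0680) and TWIST2 one of 0.94 (SE 0.46, adjusted p = 0.113), and neither passed.

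RACK1, NAP1L1, BTF3 and VIM had their extreme values in the same libraries. Control replicate 5 held the highest Control level of RACK1, NAP1L1, BTF3 and VIM. Induced replicate 2 held the lowest Induced level of the same 4 genes and the highest Induced level of TPT1 and NACA. Relative to each gene's Control mean, the median of the 7 genes was −0.28 to 0.22 on the log2 scale in Control libraries and 0.07 to 0.61 in Induced libraries, with Induced replicate 2 at 0.07 and Control replicate 5 at 0.22. The 7 genes together took up 0.340% ± 0.0677 of the gene counts in Control and 0.474% ± 0.0532 in Induced libraries (SD, n = 5 each). Their share was 0.446% in Control replicate 5 and 0.389% in Induced replicate 2, where the groups overlapped.

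**Figure D2:**
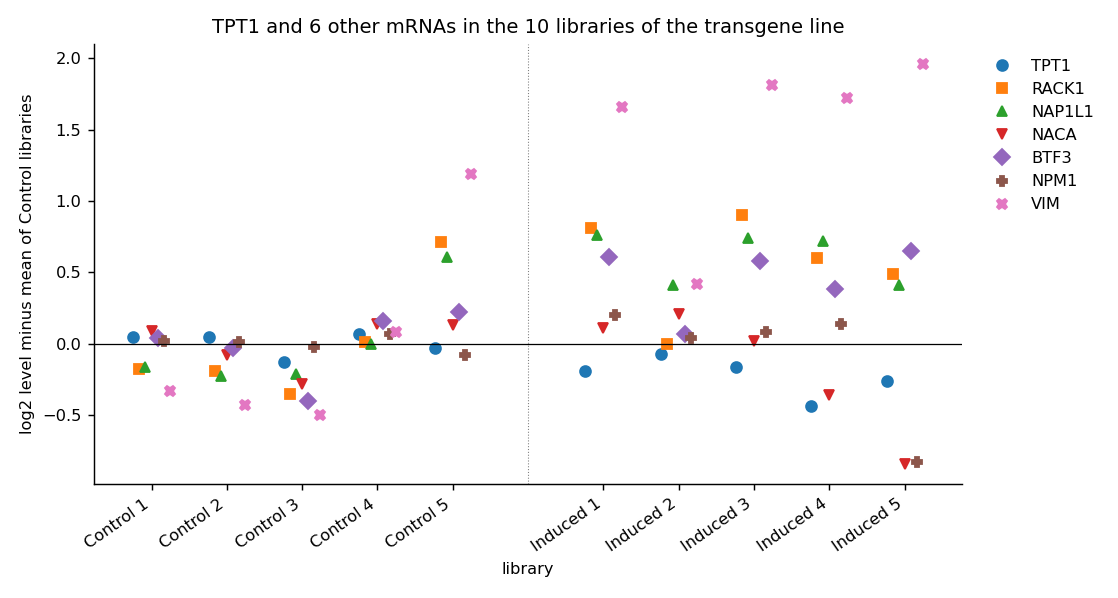
Level of each of the 7 mRNAs in the 10 libraries of the transgene line, on a log2 scale relative to the gene's own mean over Control libraries. Each symbol is 1 gene in 1 library. VIM reaches 1.96 in Induced replicate 5 but 0.42 in Induced replicate 2, and it is at 1.19 in Control replicate 5.

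The genes whose levels followed a member most closely were named by Pearson correlation of log2 CPM over the 10 libraries, as a description. The libraries of both groups enter it, so the group difference itself is part of each correlation, and the 3 genes given are the highest of all tested. They were MTA1 (r = 0.999), DCUN1D1 (0.997) and MORC2 (0.997) for VIM, EML4 (0.996), RRN3 (0.993) and NSD2 (0.992) for NAP1L1, and WT1, CDKN2AIPNL and MUS81 (0.991 each) for RACK1. For BTF3 they were COG6 (0.988), HMCES (0.988) and MACIR (0.987), for TPT1 TNFSF9 (0.973), UROD (0.970) and RPS10 (0.966), for NPM1 ENTPD7 (0.971), NEXN (0.965) and HMGN5 (0.961), and for NACA ZKSCAN2 (0.960), ZCCHC10 (0.959) and POLE3 (0.954). RPS10, a protein of the small ribosomal subunit, was the only one of the 21 from the ribosome. Over the 6 parental libraries 17 of the 21 could be computed, and they ranged from −0.87 for HMGN5 with NPM1 to 0.97 for POLE3 with NACA.

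Other mRNAs commonly grouped as TOP mRNAs were compared beside the 7. Ribosomal protein genes included 6 that rose and 29 that fell among 78 tested, with a median log2 fold change of −0.31. Among all 13038 genes tested, 20.0% rose and 19.8% fell. In a list of 14 non-ribosomal genes of translation and RNA binding, 3 rose and 4 fell, with a median of 0.16, which was −0.06 with 2 higher and 1 lower when GC offsets were used. Of these 14 genes, 7 had the TOP sequence at a RefSeq start, 1 did not and 6 had no window. FBL, given above, fell and had the lowest adjusted p of the list (0.0175). EEF1A1, the elongation factor that brings tRNA to the ribosome, rose by 2.41 (SE 0.63, adjusted p = 0.0187), HNRNPA1, a splicing factor, by 1.02 (SE 0.26, adjusted p = 0.0182), and EIF3E, an initiation factor subunit, by 0.72 (SE 0.18, adjusted p = 0.0177, without overlap). EEF1A1 held 17.8 ± 16.8 CPM in Control and 95.2 ± 76.9 CPM in Induced libraries (SD, n = 5 each), with overlap. Tags that matched several places were not counted for this gene either, and how many of its tags were lost that way was not tested.

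Genes that share the TOP sequence at a RefSeq start, taken across the genome, were called in both directions. Of 744 tested, 131 rose and 170 fell, beside 20.0% higher and 19.8% lower among all genes. Their median was 0.01 against 0.04 over all genes. The 6 members that hold the sequence had a median of 0.21, with 2 higher and 0 lower, and the full 7 had a median of 0.46. With GC offsets these medians were 0.08 and 0.10, and with 1 surrogate variable 0.06 and 0.15. Of 80 ribosomal protein genes, 48 had the sequence at a RefSeq start, 16 did not and 16 had no window in the table. With total counts alone the split of the 744 was 227 higher and 85 lower, with a median of 0.24 beside 0.28 over all genes, so that scale raised the class and all genes alike.

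**Figure D3:**
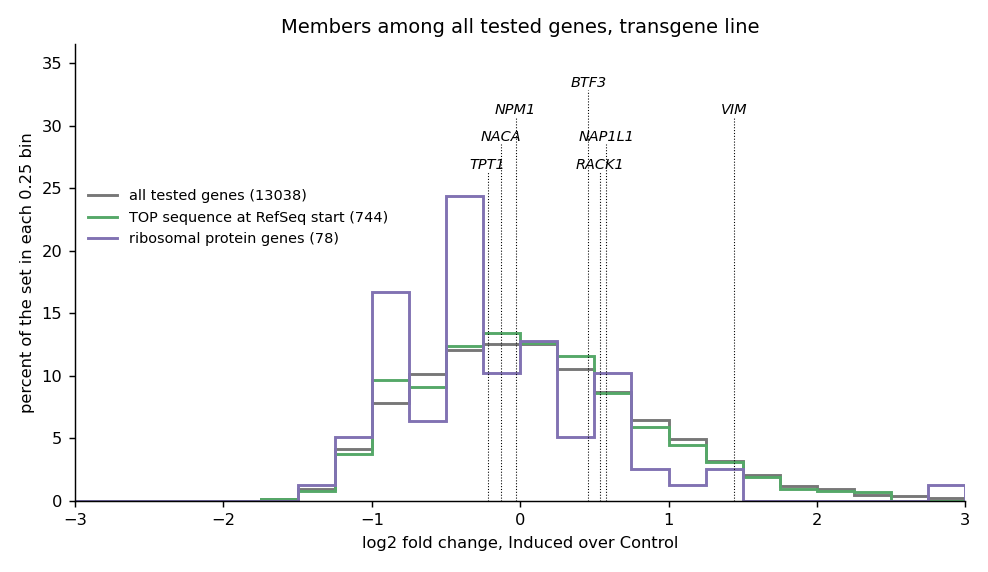
Distribution of log2 fold changes of Induced over Control libraries, as the percent of each set in bins of 0.25 between −3 and 3, for all 13038 genes tested, the 744 with a TOP sequence at a RefSeq start and the 78 ribosomal protein genes. Dotted lines mark the 7 mRNAs, from TPT1 at −0.22 to VIM at 1.44.

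The mRNAs of 10 proteins that bind TOP or other mRNAs were tested. Of these 3 rose and 0 fell, beside 20.0% higher and 19.8% lower among all 13038 genes. Their median log2 fold change was 0.48, against 0.04 over all genes. SSB, which encodes the La protein, rose by 0.72 (SE 0.18, adjusted p = 0.0177) and TIA1, a stress granule protein, by 0.60 (SE 0.15, adjusted p = 0.0177), both without overlap, and HNRNPD by 0.68 (SE 0.19, adjusted p = 0.0221). LARP1, the repressor that binds the cap and the TOP sequence, had a log2 fold change of 0.60 (SE 0.22) with an adjusted p of 0.0502. Among 9 factors that act beside the nascent polypeptide-associated complex at the ribosome exit, SRP9 rose by 0.82 (SE 0.24, adjusted p = 0.0246), while SEC61A1, the channel subunit, fell by 0.98 (SE 0.22, adjusted p = 0.0175) and SRP14 fell by 0.53 (SE 0.17, adjusted p = 0.0303).

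Ratios within a library do not depend on how libraries are scaled, so a pair of them was examined for genes whose proteins act together. The log2 ratio of NACA to BTF3 counts was 0.34, 0.24, 0.40, 0.27 and 0.20 in Control replicates 1 to 5 and −0.22, 0.43, −0.27, −0.46 and −1.20 in Induced replicates 1 to 5. NACA thus held more counts than BTF3 in every Control library and fewer in 4 of 5 Induced libraries, with Induced replicate 2 as the exception. The mean went from 0.29 ± 0.08 to −0.34 ± 0.58 (SD, n = 5 each), a difference of −0.63, with p = 0.0476 by an exact two-sided permutation test over all 252 splits. Adjusted over the 4 ratio tests made in both lines it was p = 0.0952 by the same exact test, so the difference did not pass, and the unadjusted p of the exact test ranged from 0.00794 to 0.0794 when 1 library was left out.

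RACK1 was set against the summed counts of the ribosomal protein genes, since its protein is part of the ribosome. The log2 ratio was −8.73, −8.80, −8.97, −8.51 and −7.68 in Control replicates 1 to 5 and −7.26, −8.29, −7.17, −7.29 and −7.32 in Induced replicates 1 to 5. Induced replicate 2 and Control replicate 5 were again the libraries nearest to the other group. The mean went from −8.54 ± 0.51 to −7.47 ± 0.46 (SD, n = 5 each), a difference of 1.07 on the log2 scale, with p = 0.0159 by the exact two-sided permutation test. Adjusted over the 4 exact tests it was p = 0.0636, which did not pass, and the difference was 0.68 when the mean log2 count of the ribosomal protein genes replaced their sum. The ribosomal protein genes together took up 24.2% ± 0.597 of the gene counts in Control and 20.1% ± 1.76 in Induced libraries (SD, n = 5 each).

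**Figure D4:**
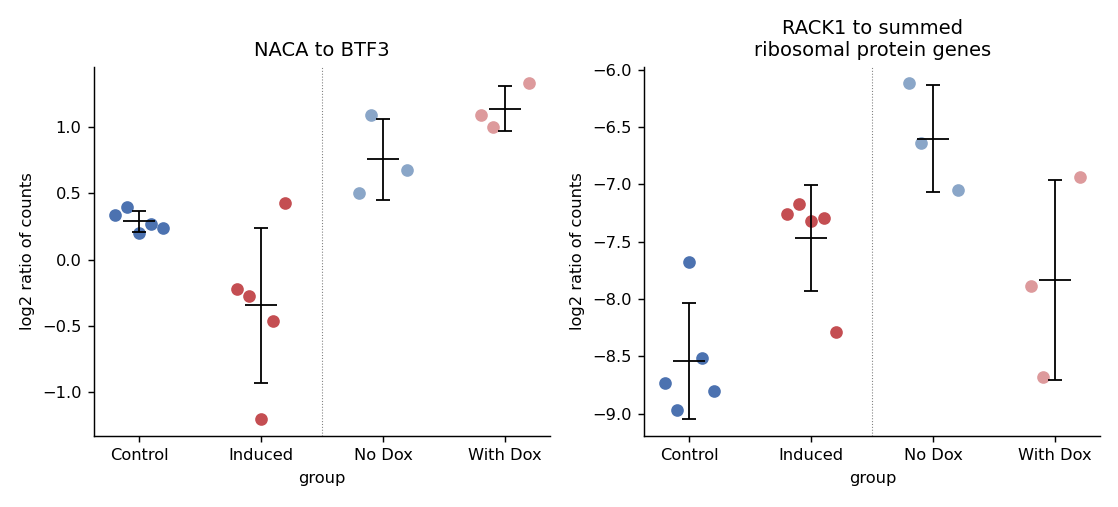
Log2 ratio of counts within each library, for NACA over BTF3 and for RACK1 over the sum of the ribosomal protein genes. Points are libraries and black bars are the mean and SD (n = 5 for Control and Induced, n = 3 for No Dox and With Dox). The first ratio averages 0.29 in Control and −0.34 in Induced libraries, and the second −8.54 and −7.47.

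The parental line was examined to learn whether doxycycline alone moves the same mRNAs. None of the 7 was called in either direction, beside 0.00% of the 9124 genes tested. At an unadjusted p under 0.05 there were 267 genes, 2.93% of those tested, and none of the 7 was among them. NACA was the only one whose groups did not overlap, higher with doxycycline, beside 9.52% of all genes without overlap and 4.87% without overlap and higher. Replicates were 3 per group at a fraction of the depth, and the smallest number of counts for any of the 7 genes in 1 library was 152, for VIM. The nuclear RNAs MALAT1 and NEAT1 together held 468 to 1660 CPM in No Dox and 267 to 452 CPM in With Dox libraries, and the part of this difference in the values of the 7 genes was not tested.

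NACA held 230.0, 424 and 429 CPM in No Dox and 694, 733 and 499 CPM in With Dox replicates 1 to 3. The lowest With Dox library lay above the highest No Dox library, and the log2 fold change was 0.83 (SE 0.42, unadjusted p = 0.0715 and adjusted p = 0.997, edgeR). TPT1 held 499.9, 1702 and 1366 CPM in No Dox and 1868, 1953 and 1561 CPM in With Dox replicates 1 to 3. No Dox replicate 1 was far below the others, and it also had the highest share of mitochondrial gene counts, 9.38% against 1.76% to 5.78% in the other parental libraries, whose part in the value was not tested. The log2 fold change of 0.59 (0.30 without No Dox replicate 1 and 1.02 without No Dox replicate 2) had an interval of −0.39 to 1.58 (1.96 SE on each side, about 95%).

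RACK1 held 973, 1003 and 1018 CPM in No Dox and 591, 1001 and 481 CPM in With Dox replicates 1 to 3, so a low value in 2 of the 3 With Dox libraries gave a log2 fold change of −0.53 with an interval of −1.36 to 0.30. VIM held 342, 452 and 178 CPM in No Dox and 219.7, 330.2 and 124 CPM in With Dox replicates 1 to 3. The ranges overlapped broadly, and the log2 fold change was −0.53 (interval −1.48 to 0.43). It was −0.14 without No Dox replicate 2, −0.27 without With Dox replicate 3 and −0.87 without With Dox replicate 2. NAP1L1, BTF3 and NPM1 had 697 to 861, 162 to 265 and 241 to 459.7 CPM in No Dox and 571 to 1082, 249 to 326 and 391 to 463 CPM in With Dox libraries. Their log2 fold changes were 0.15 (interval −0.65 to 0.96), 0.47 (−0.27 to 1.20) and 0.28 (−0.50 to 1.05).

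The ratios within parental libraries did not differ beyond what 3 libraries per group can show, since the smallest p an exact permutation test can give there is 0.1. The log2 ratio of NACA to BTF3 was 0.76 ± 0.30 without and 1.14 ± 0.17 with doxycycline (SD, n = 3 each, exact two-sided permutation p = 0.3). The log2 ratio of RACK1 to the ribosomal protein genes was −6.60 ± 0.47 without and −7.84 ± 0.87 with doxycycline (SD, n = 3 each, exact two-sided permutation p = 0.2). The 7 genes together took up 0.430% ± 0.0978 and 0.466% ± 0.132 of the gene counts (SD, n = 3 each). Ribosomal protein genes took up 10.3% ± 3.19 in No Dox and 14.1% ± 2.1 in With Dox libraries (SD, n = 3 each), against 24.2% in Control libraries.

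Whether the lines responded differently was tested with an interaction term over all 16 libraries. That fit scaled all 16 libraries together, with a median of −0.09 over all genes. Its values are therefore not exact differences of the fits within each line. None of the 7 passed, beside 2.98% of the 12265 genes tested, and 4 of the 7 had an unadjusted p under 0.05, beside 26.1% of all genes. The widest differences of the transgene line minus the parental line were 1.78 for VIM (SE 0.60, adjusted p = 0.0875, edgeR), −1.18 for NACA (SE 0.38, adjusted p = 0.0807), −1.04 for TPT1 (SE 0.42, adjusted p = 0.133) and 0.85 for RACK1 (SE 0.40, adjusted p = 0.181). For NPM1, BTF3 and NAP1L1 they were −0.54, −0.23 and 0.22. Without No Dox replicate 1 the difference was −0.49 for TPT1 and −0.14 for NPM1. By DESeq2's Wald test, which called 12.1% of all genes, VIM (1.85, adjusted p = 0.0359) and NACA (−1.11, adjusted p = 0.0380) passed. The rise of VIM, NAP1L1 and BTF3 in the transgene line is therefore not shown to differ from the response of the parental line by the main test.

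**Figure D5:**
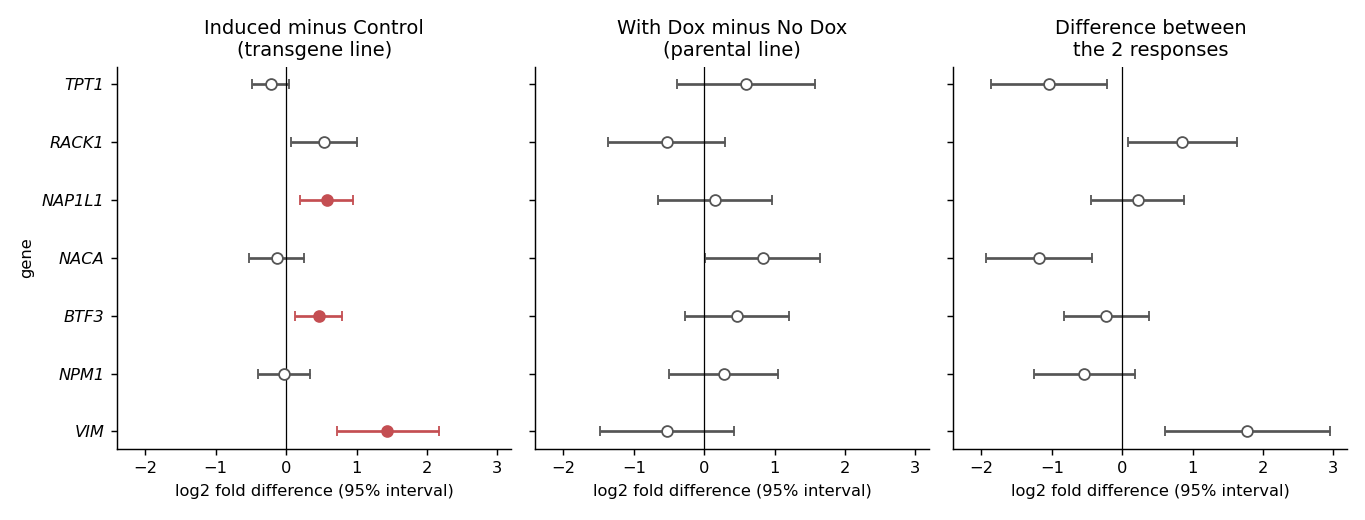
Log2 fold differences of the 7 mRNAs with an interval of about 95% (1.96 SE on each side), for Induced minus Control, With Dox minus No Dox, and the difference between these responses. The last panel is from a joint fit of all 16 libraries scaled together, so its values are not exactly the first panel minus the second. For TPT1 the panels show −0.22, 0.59 and −1.04. Filled red points passed an adjusted p of 0.05, which VIM, NAP1L1 and BTF3 did in the first panel and none did in the others.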

How the data were processed

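The authors deposited unnormalized tag counts per Ensembl gene for each of the 16 libraries, made from QuantSeq REV 3′ sequencing aligned to GRCh38. The aligner version, the annotation release, the use of strand and the handling of duplicate tags are not given in the sources used here. Spike-in and summary entries were left out. Depth is given with the report, and no 2 libraries of a group agreed within sampling noise.

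The members and the lists beside them were chosen with earlier results of these data known. Genes with a base mean above 20 were compared in R 4.3.3 with edgeR 4.0.16, using TMM scaling and the quasi-likelihood test, with p adjusted over all genes tested (Benjamini-Hochberg) and called below 0.05. The fit was tested on simulated data first. SE is the log2 fold change divided by the square root of the F statistic. From each list, at most 4 genes with the lowest adjusted p were named, together with paralogues and antisense genes of the members. KRT8 was named as the partner of KRT18 after its values were seen. Correlations used log2 CPM with a prior count of 2. Replicates are described as biological. Alternatives were DESeq2 1.42.0 (Wald test and size factors), total counts alone, no filter or filterByExpr, a replicate block, GC offsets (lowess span 0.5), 1 surrogate variable (sva 3.50.0) and each library left out. Ratios were tested by exact permutation in Python 3.11.15. Gene coordinates are from GENCODE release 44 and the 30-base sequences from RefSeq's promoter table (GRCh38.p14), which held all 7 members. The description over all genes with a TOP sequence was added after seeing the data.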

Additional observations from a re-analysis of the deposited data

Results flagged for a closer look

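Of 20 groups of 5 values examined in the transgene line, 6 held a library whose gap to its neighbour exceeded Dixon's 95% critical value of 0.710, and chance alone gives about 1 in 20. The groups are not independent, because they come from the same 10 libraries, over which RACK1, NAP1L1 and VIM correlated at 0.92 to 0.94. The 6 are therefore not separate departures from chance. Control replicate 5 was the highest Control library for RACK1 (1164 CPM), NAP1L1 (738 CPM) and VIM (337 CPM). Induced replicate 2 was the lowest Induced library for VIM (198 CPM) and for the log2 ratio of RACK1 to the ribosomal protein genes (−8.29). Induced replicate 5 was the lowest Induced library for NPM1 (284 CPM), and it had the most tags aligned to more than 1 place, 1.33 for each count on a gene, whose part in the NPM1 value was not tested.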

How the results depend on the processing

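For single members and ratios, 402 alternative values were computed, of which 339 kept their direction and side of the threshold. Parental values are among them, and the main test called 0 of 9124 genes there, so this total says little about the 3 calls. Of the 10 fits without 1 library in the transgene line, 8 lost BTF3, 7 lost NAP1L1 and 0 lost VIM. In the transgene line VIM was lost with 1 surrogate variable (0.92). BTF3 was lost with 1 surrogate variable (0.21), DESeq2 size factors (0.42), GC offsets (0.32), GC offsets with the replicate block (0.31), filterByExpr (0.46), no filter (0.45) and the replicate block (0.46). NAP1L1 was lost with 1 surrogate variable (0.31), GC offsets (0.10, with the block 0.11) and no filter (0.57). TPT1 was called lower with GC offsets (−0.49, with the block −0.50), and RACK1 was called higher with total counts alone (0.76). Total counts alone moved the median of all genes from 0.04 to 0.28 and put TPT1 at 0.01, NPM1 at 0.20 and NACA at 0.08, still below that median by 0.26, 0.08 and 0.19. The sign turned with GC offsets for NACA (0.06, with the block 0.02). The count of members called higher, 3, became 0 with 1 surrogate variable 1 with GC offsets, GC offsets with the block or no filter, 2 with DESeq2 size factors, filterByExpr or the replicate block and 4 with total counts alone, and the count called lower, 0, became 1 with GC offsets, with or without the block. The cause was not tested.

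In the parental line the sign for NAP1L1 turned with 1 surrogate variable (−0.02). In the difference between lines, total counts alone moved the median of all genes from −0.09 to 0.49 and put BTF3 at 0.35 and NPM1 at 0.07, DESeq2's Wald test called NACA (−1.11) and VIM (1.85), and the replicate block called VIM (1.83). Same-numbered libraries did not deviate together in every pair (correlations of −0.373 to 0.625 in the transgene line and −0.420 to 0.237 in the parental line), so the numbers were not taken to pair them. Paired sign flips (replicate block) gave p = 0.125 for NACA to BTF3 (−0.63) and p = 0.0625 for RACK1 to ribosomal protein genes (1.07) by an exact test, which is the smallest that 5 pairs can give.

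When each library was left out in turn, the log2 fold changes in the transgene line ranged from −0.27 to −0.17 for TPT1, 0.44 to 0.75 for RACK1, 0.51 to 0.75 for NAP1L1, −0.23 to 0.00 for NACA, 0.36 to 0.54 for BTF3, −0.09 to 0.12 for NPM1 and 1.31 to 1.87 for VIM, and 1 to 4 members were called higher. In the parental line the ranges were −0.01 to 0.34 for NAP1L1, 0.30 to 1.02 for TPT1, −0.87 to −0.14 for VIM, −0.85 to −0.36 for RACK1, 0.37 to 0.74 for BTF3, 0.14 to 0.58 for NPM1 and 0.66 to 1.04 for NACA. Differences between lines ranged from −1.23 to −0.49 for TPT1, −0.61 to −0.14 for NPM1, 0.01 to 0.55 for NAP1L1, −0.31 to 0.10 for BTF3, −1.32 to −0.77 for NACA (called without Control replicate 5 or Induced replicate 2), 0.66 to 1.36 for RACK1 (called without With Dox replicate 2) and 1.5 to 2.28 for VIM (called without Control replicate 5, Induced replicate 2 or With Dox replicate 2). The ratio of NACA to BTF3 ranged from −0.82 to −0.42, and RACK1 to ribosomal protein genes from 0.96 to 1.28. The low depth of the parental libraries limits what they can show. They also differed in composition, with 1.11 to 1.5 tags outside any gene per gene count, against 0.0744 to 0.106 in the transgene line. The part of this in the differences between lines was not tested.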
